A study of Mus musculus with 21 samples.

Results

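The TAM receptors Mertk, Axl and Tyro3, their bridging ligands Gas6 and Pros1, and a second bridging route made of Mfge8 and the integrin chain Itgav were followed in striatal microglia, the resident macrophages of the brain. These 7 genes were taken by symbol, as the rows of the count table whose Ensembl identifier maps to them, and are 7 of the 55487 genes in the table. They were measured by bulk RNA sequencing in 21 libraries of cells sorted by flow cytometry as live, CD11b+, CD45-low and P2RY12+.

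The groups used here were microglia from male mice aged 8 to 10 weeks in which maternal history and an adult injection were crossed. MIA LPS mice were born to dams whose immune system was activated in pregnancy (maternal immune activation, MIA) and were injected with lipopolysaccharide (LPS), the bacterial ligand of Toll-like receptor 4. MIA saline mice had the same maternal history and received saline. Control LPS and control saline mice were offspring of control dams. LPS was given into the peritoneum at 4500 endotoxin units per gram of body weight, and microglia were taken 18 hours after either injection. No genotype, strain or agent used on the dams is given in the sources used here. The comparisons rest on 3 MIA LPS, 5 MIA saline, 5 control LPS and 6 control saline libraries of batch 1. The single batch 2 library, MIA LPS replicate 4, is taken up by the batch term of the fit, and MIA saline replicate 6, titled as excluded by the submitters, was left out.

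Efferocytosis is the clearance of dying cells by phagocytes. Dying cells expose the lipid phosphatidylserine, and bridging proteins bind it with one end and a receptor of the phagocyte with the other. Gas6 binds all TAM receptors, whereas Pros1 (protein S) binds Mertk and Tyro3. Both ligands need vitamin K-dependent gamma-carboxylation to bind the lipid. TAM receptors are tyrosine kinases that drive engulfment and also dampen Toll-like receptor and interferon signalling in macrophages. Mfge8 (milk fat globule-EGF factor 8) bridges phosphatidylserine to integrins that contain the alpha-v chain, which Itgav encodes. In the mouse brain Mertk and Axl are the TAM receptors of microglia, and Mertk is high in resting microglia.

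The promoters of both tested TAM receptors and both TAM ligands are shown because Axl moved against the other 3 after LPS. Each is the 250 bases before the RefSeq start of the gene (GRCm38.p6), written 5′ to 3′ on the strand of the gene. Capitals mark matches, on either strand, to the GC box (GGGCGG), the PU.1 core (GAGGAA), the interferon gamma-activated site GAS (TTCNNNGAA), the interferon-stimulated response element (ISRE, GAAA half-sites 2 bases apart) or the AP-1 site (TGANTCA).
Mertk, chr2:128698665-128698914, + strand: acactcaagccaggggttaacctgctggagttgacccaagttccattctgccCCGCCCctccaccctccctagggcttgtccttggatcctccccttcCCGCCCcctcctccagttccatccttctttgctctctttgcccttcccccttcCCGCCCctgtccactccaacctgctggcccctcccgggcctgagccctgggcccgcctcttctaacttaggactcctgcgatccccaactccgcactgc
Axl, chr7:25788734-25788983, - strand: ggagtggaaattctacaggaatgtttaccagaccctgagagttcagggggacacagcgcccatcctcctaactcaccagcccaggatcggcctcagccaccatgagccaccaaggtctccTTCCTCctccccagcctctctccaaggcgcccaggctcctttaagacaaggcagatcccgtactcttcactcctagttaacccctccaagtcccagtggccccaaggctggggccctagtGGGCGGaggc
Gas6, chr8:13494536-13494785, - strand: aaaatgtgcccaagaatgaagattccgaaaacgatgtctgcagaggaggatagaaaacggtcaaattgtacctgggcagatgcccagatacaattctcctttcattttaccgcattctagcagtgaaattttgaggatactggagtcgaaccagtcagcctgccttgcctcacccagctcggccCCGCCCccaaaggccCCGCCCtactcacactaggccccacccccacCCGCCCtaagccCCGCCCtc
Pros1, chr16:62854057-62854306, + strand: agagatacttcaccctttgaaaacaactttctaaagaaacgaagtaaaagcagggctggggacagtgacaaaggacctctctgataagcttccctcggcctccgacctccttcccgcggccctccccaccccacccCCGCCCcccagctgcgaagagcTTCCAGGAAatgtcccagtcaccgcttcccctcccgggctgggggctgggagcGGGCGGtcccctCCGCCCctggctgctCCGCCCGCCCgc
Mertk held 3 GC boxes, Gas6 4, Axl 1 and Pros1 5, of which the last pair in Pros1 overlap. Axl also held 1 PU.1 core at -130 to -125 from the start, and Pros1 held 1 GAS at -92 to -84. None of the 4 windows shown held the ISRE or AP-1 letters. Of the members not shown, Itgav, which fell after LPS, held 2 PU.1 cores and Mfge8 held 1, so this core was not particular to Axl. Of all 32536 promoters of this length, 33.0% held a GC box, 23.4% a PU.1 core, 7.04% a GAS, 2.98% an ISRE and 6.73% an AP-1 site. These matches describe letters in a window and not binding.

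Total counts ran from 9.85 to 19.0 M per library (M, counts in units of 1e+06) over the batch 1 libraries compared, and ribosomal RNA rows took 46.2% to 55.9% of them. All 8 microglial markers looked at were detected. After LPS, 18.3% of all genes tested were called lower in MIA and 21.3% in control offspring (edgeR adjusted p under 0.05). Of the microglial markers, 5 fell in both maternal groups (6 in MIA offspring without MIA LPS replicate 2). Their summed level was 3917 to 5885 counts per 1e+06 counts (CPM, of the library total for all marker sums) in MIA LPS, 10560 to 14810 CPM in MIA saline, 4724 to 6271 CPM in control LPS and 11200 to 14840 CPM in control saline libraries. P2ry12, whose protein was used in the sort, averaged 203 ± 75.4 CPM in MIA LPS, 2050 ± 223 CPM in MIA saline, 188 ± 17.3 CPM in control LPS and 1974 ± 199 CPM in control saline libraries (SD, n = 3, 5, 5 and 6). MIA LPS replicate 2 stood apart from the other LPS libraries: its summed astrocyte markers were 235 CPM against at most 146 CPM in the others of batch 1, and its oligodendrocyte markers 91.5 CPM against at most 52.7 CPM. The member changes, the changes of the ratios to Mertk after LPS and the list counts that involve MIA LPS are therefore also given without it. Group means and shares include it. In bulk samples, fewer cells of a type and less RNA per cell cannot be told apart. The libraries carry ID labels that share a number, with 6 values among control and 3 among MIA libraries, and the labels do not say what it marks. P-values measure the spread between libraries, which may not be independent litters.

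LPS changed the TAM axis in the same direction in both maternal groups. Axl rose and Gas6 fell, each by more than 5-fold, and Mertk, Pros1 and Itgav fell by smaller amounts, while Mfge8 did not pass the test and Tyro3 was too low to test. In edgeR's quasi-likelihood test over all genes, 6 of the 7 members passed the filter on low counts. With a call at a Benjamini-Hochberg adjusted p under 0.05, 1 member was higher and 4 were lower after LPS, both in MIA and in control offspring. Of all 14741 genes tested, 39.1% were called in MIA offspring (20.8% higher and 18.3% lower) and 44.6% in control offspring (23.3% higher and 21.3% lower). The median log2 fold change of the 6 tested members was -0.74 in MIA offspring and -0.585 in control offspring, beside 0.018 and -0.0032 over all genes tested. The 5 called members stayed called whichever single library was left out. The LPS and saline groups did not overlap for 5 of the 7 members in either maternal group, beside 36.5% of tested genes in MIA and 28.9% in control offspring.

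Per length of exon, Mertk was the most abundant member in every group, followed by Pros1 and Itgav. Mertk averaged 70.1 ± 13.6 CPM per kb in MIA LPS, 113 ± 3.39 CPM per kb in MIA saline, 80.8 ± 5.79 CPM per kb in control LPS and 114 ± 5.63 CPM per kb in control saline libraries. Pros1, the next in order, averaged 26.9 ± 4.18, 46.3 ± 1.29, 29.8 ± 4.78 and 47.5 ± 5.10 CPM per kb in the same 4 groups, and no Pros1 value reached a Mertk value. Itgav came next, at 7.70 ± 1.61, 13.9 ± 0.899, 8.56 ± 1.59 and 15.5 ± 1.03 CPM per kb, with no overlap with its neighbours in the order. The lower places differed with treatment. After saline, Gas6 followed at 11.1 ± 1.05 CPM per kb (MIA) and 9.88 ± 2.21 CPM per kb (control), above Mfge8 and Axl, whose ranges overlapped each other. After LPS, Axl followed at 3.05 ± 0.650 CPM per kb (MIA) and 2.29 ± 0.669 CPM per kb (control), and its range overlapped that of Gas6, at 1.94 ± 0.742 and 1.54 ± 0.403 CPM per kb. Axl was above Gas6 in 3 of 3 MIA LPS and 4 of 5 control LPS libraries. Gas6 and Mfge8 overlapped after LPS in both maternal groups, and Tyro3 was last throughout.

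**Figure D1:**
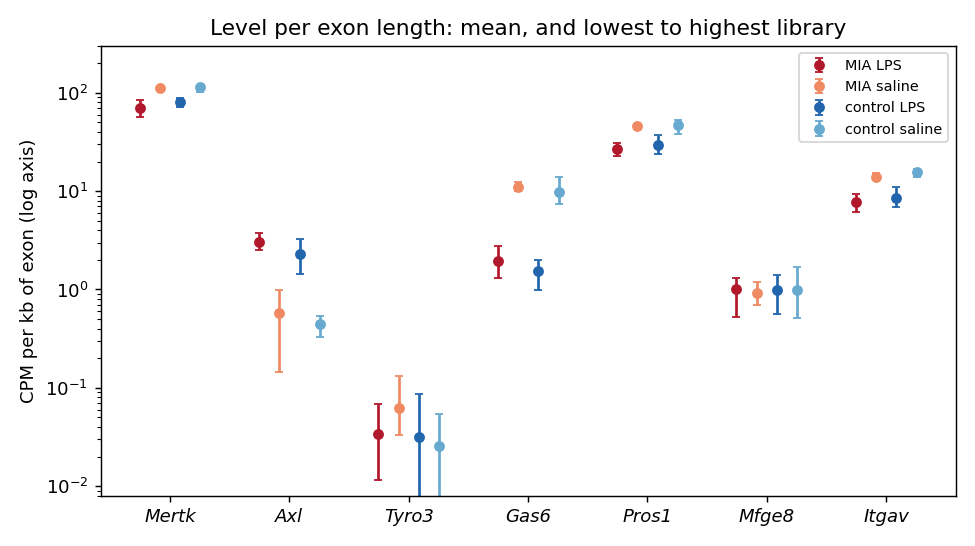
Mean level of each member in CPM per kb of exon (log axis) in the 4 groups; points are group means and bars run from the lowest to the highest library of batch 1. Mertk lies highest in every group, and Axl lies above Gas6 after LPS but below it after saline; for Tyro3, bars of groups with a library at 0 run off the axis.

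Mertk, a receptor tyrosine kinase of efferocytosis by macrophages, lies at chromosome 2, 128698956 to 128802894, + strand (ENSMUSG00000014361.5). Its level was 365, 247 and 301 CPM in the MIA LPS libraries, against 514, 492.8, 491, 478 and 478 CPM in the MIA saline libraries. The control LPS libraries held 386, 352, 353, 315 and 346 CPM, against 446 to 511 CPM with a median of 504 CPM in the 6 control saline libraries. Every LPS library lay below every saline library, and the lowest value of all was MIA LPS replicate 2. The means were 304 ± 59.1 CPM (MIA LPS, n = 3), 490.5 ± 14.7 CPM (MIA saline, n = 5), 350.2 ± 25.1 CPM (control LPS, n = 5) and 493.2 ± 24.4 CPM (control saline, n = 6). Mertk fell by 0.69 ± 0.13 on the log2 scale (SE) in MIA offspring (edgeR adjusted p = 0.000158) and by 0.49 ± 0.11 in control offspring (edgeR adjusted p = 0.000536). These are 1.61-fold and 1.41-fold lower levels. Without MIA LPS replicate 2 the log2 change in MIA offspring was -0.56 and stayed called.

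Axl, which binds Gas6 and is induced by interferon and Toll-like receptor ligands in mouse macrophages, lies at chromosome 7, 25757273 to 25788705, - strand (ENSMUSG00000002602.16). Its level was 18.9, 14.5 and 12.6 CPM in the MIA LPS libraries, against 3.16, 0.723, 2.09, 3.44 and 4.93 CPM in the MIA saline libraries. In control LPS libraries it was 16.2, 13.1, 10.7, 10.3 and 7.21 CPM, against 1.67 to 2.71 CPM with a median of 2.31 CPM in the 6 control saline libraries. The LPS and saline groups did not overlap, and the spread was wide at these depths, with 9 to 74 counts per MIA saline library. Axl rose by 2.40 ± 0.33 (log2, SE) in MIA offspring, a 5.29-fold rise (edgeR adjusted p = 1.72e-06), and by 2.38 ± 0.29 in control offspring, a 5.20-fold rise (edgeR adjusted p = 1.91e-07). Leaving out MIA LPS replicate 2 gave a log2 change of 2.44 in MIA offspring. Although it rose, Axl stayed a small part of the TAM receptor transcripts. Of the summed per-length level of the 3 receptors, Mertk held 95.8% ± 0.684 in MIA LPS, 99.4% ± 0.281 in MIA saline, 97.2% ± 0.634 in control LPS and 99.6% ± 0.0811 in control saline libraries.

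Tyro3, the TAM receptor best known from neurons, lies at chromosome 2, 119797733 to 119818104, + strand (ENSMUSG00000027298.17) and had 0 to 12 counts in each batch 1 library compared. Its mean was 0.209 ± 0.188 CPM in MIA LPS, 0.384 ± 0.249 CPM in MIA saline, 0.197 ± 0.221 CPM in control LPS and 0.160 ± 0.119 CPM in control saline libraries, and all 4 groups overlapped. It had 0 counts in control LPS replicates 1 and 2, which allows up to 0.165 and 0.199 CPM, and in control saline replicate 4, which allows up to 0.215 CPM (3 counts of the total, counting error only). With no filter on low counts, its log2 change after LPS was -0.89 in MIA and 0.22 in control offspring, and neither was called. A difference in Tyro3 was not detectable at this depth.

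**Figure D2:**
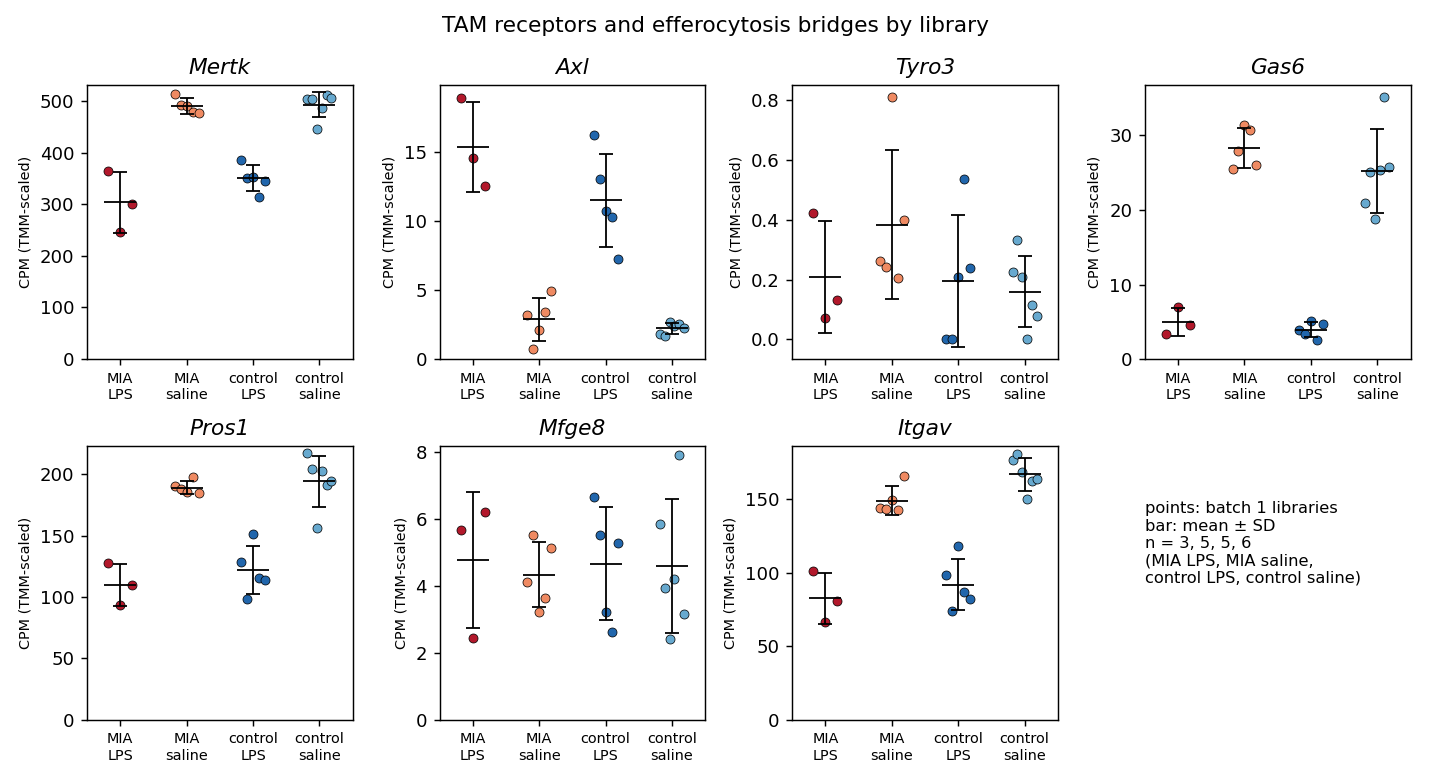
Level of each member in CPM (TMM-scaled) in every batch 1 library of the 4 groups; points are libraries, and bars are the mean ± SD (n = 3 MIA LPS, 5 MIA saline, 5 control LPS, 6 control saline). Axl is higher and Mertk, Gas6, Pros1 and Itgav are lower in every LPS library than in every saline library of the same maternal group, whereas Tyro3 and Mfge8 overlap.

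Gas6, the ligand that activates all TAM receptors, lies at chromosome 8, 13465374 to 13494490, - strand (ENSMUSG00000031451.6). Its level was 3.30, 7.02 and 4.56 CPM in the MIA LPS libraries, against 25.5, 27.9, 31.4, 30.7 and 25.98 CPM in the MIA saline libraries. In control LPS libraries it was 3.96, 3.37, 5.09, 2.55 and 4.73 CPM, against 18.8 to 35.2 CPM with a median of 25.2 CPM in the 6 control saline libraries. The highest LPS value, in MIA LPS replicate 2, was still well under the lowest saline value. Gas6 fell by 2.51 ± 0.25 (log2, SE) in MIA offspring, to a level 5.68-fold lower (edgeR adjusted p = 1.01e-08), and by 2.69 ± 0.20 in control offspring, to a level 6.46-fold lower (edgeR adjusted p = 4.67e-11). Leaving out MIA LPS replicate 2 gave a log2 change of -2.83 in MIA offspring. Exons of Gas6 overlap those of Tmem255b on the opposite strand, which averaged 0.0035 CPM; whether reads were counted by strand is not given in the sources used here.

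Pros1, the anticoagulant protein S and the more abundant TAM ligand here, lies at chromosome 16, 62854307 to 62929346, + strand (ENSMUSG00000022912.8). Its level was 127, 93.1 and 109.7 CPM in the MIA LPS libraries, against 190.2, 188, 185, 198 and 185 CPM in the MIA saline libraries. Among control LPS libraries it was 129, 98.7, 151, 116 and 114 CPM, against 156 to 217 CPM with a median of 199 CPM in the 6 control saline libraries. The groups did not overlap, but the highest control LPS library and the lowest control saline library lay close together. Pros1 fell by 0.78 ± 0.14 (log2, SE) in MIA offspring (edgeR adjusted p = 0.000101) and by 0.68 ± 0.12 in control offspring (edgeR adjusted p = 3.82e-05), which is 1.72-fold and 1.60-fold lower. Without MIA LPS replicate 2 the log2 change in MIA offspring was -0.67. Of the summed per-length level of both ligands, Gas6 held 7.01% ± 3.46 in MIA LPS, 19.3% ± 1.41 in MIA saline, 4.93% ± 1.02 in control LPS and 17.2% ± 3.09 in control saline libraries, and Pros1 held the rest.

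Mfge8 and Itgav belong to the integrin route. Mfge8, the secreted bridge, lies at chromosome 7, 79133768 to 79149060, - strand (ENSMUSG00000030605.15), and was low in these microglia. Its level was 5.67, 2.46 and 6.21 CPM in MIA LPS libraries, against 4.12, 5.54, 3.24, 3.65 and 5.13 CPM in MIA saline libraries. In control LPS libraries it was 6.66, 5.53, 3.22, 2.61 and 5.29 CPM, against 2.43 to 7.93 CPM with a median of 4.08 CPM in the 6 control saline libraries. Of the 3 MIA LPS libraries, 2 lay above all 5 MIA saline libraries and 1, replicate 2, lay below them all. All 5 control LPS libraries lay within the control saline range. No change passed the test. The log2 change after LPS was 0.14 ± 0.37 in MIA offspring (95% interval -0.61 to 0.89, edgeR adjusted p = 0.796) and 0.023 ± 0.30 in control offspring (95% interval -0.60 to 0.64, edgeR adjusted p = 0.962). The sign of the control value turned with the scaling, at -0.0436 under RLE, and the MIA value was 0.46 without MIA LPS replicate 2. These intervals do not show that Mfge8 was level.

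Itgav, whose protein pairs with beta integrin chains to bind Mfge8, lies at chromosome 2, 83724397 to 83806916, + strand (ENSMUSG00000027087.11). Its level was 101, 66.5 and 80.5 CPM in the MIA LPS libraries, against 144, 143, 149.6, 143 and 165.5 CPM in the MIA saline libraries. The control LPS libraries held 98.3, 74.0, 118, 87.2 and 82.1 CPM, against 149.8 to 181 CPM with a median of 166 CPM in the 6 control saline libraries. Every batch 1 LPS library lay below every saline library. Itgav fell by 0.85 ± 0.15 (log2, SE) in MIA offspring (edgeR adjusted p = 6.16e-05) and by 0.86 ± 0.12 in control offspring (edgeR adjusted p = 2.4e-06), which is 1.80-fold and 1.82-fold lower. The log2 change in MIA offspring was -0.71 with MIA LPS replicate 2 left out. Exons of Itgav overlap those of Gm13684 on the opposite strand, which averaged 5.42 CPM.

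**Figure D3:**
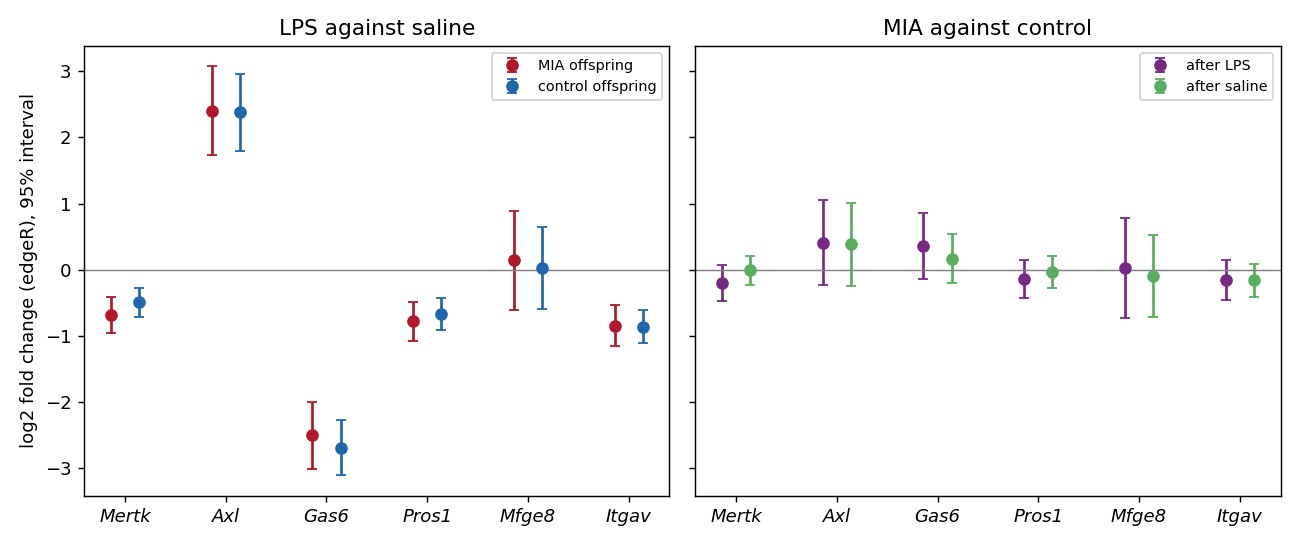
Log2 fold changes of the 6 tested members from edgeR with 95% intervals, for LPS against saline (left, MIA and control offspring) and MIA against control (right, after LPS and after saline). After LPS the intervals of all members but Mfge8 lie to one side of 0, and every MIA interval includes 0.

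To set Axl and the bridging ligands against Mertk, per-length ratios within each library were compared with 20 two-sided exact permutation tests. A ratio within a library does not depend on how the library was scaled. Axl was 4.47%, 5.08% and 3.60% of the Mertk level in MIA LPS libraries, against 0.529%, 0.126%, 0.367%, 0.620% and 0.889% in MIA saline libraries. In control LPS libraries it was 3.63%, 3.20%, 2.61%, 2.82% and 1.80%, against 0.285% to 0.523% in control saline libraries. Every LPS library had more Axl per Mertk than every saline library. The mean log2 ratio was higher after LPS by 3.36 in MIA offspring (exact permutation p = 0.0357, adjusted p = 0.179 over the 20 tests) and by 2.84 in control offspring (exact permutation p = 0.00433, adjusted p = 0.0433). Both are the smallest p that these group sizes allow, and only the control comparison passed. The MIA comparison did not pass although its p could not be smaller, so the outcomes do not set the maternal groups apart. The same floor holds for every ratio test of LPS in MIA offspring. The MIA difference was 3.245 with MIA LPS replicate 2 left out.

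Gas6 moved the other way relative to Mertk. It was 1.54%, 4.84% and 2.58% of the Mertk level in MIA LPS libraries, against 8.45%, 9.63%, 10.9%, 10.9% and 9.26% in MIA saline libraries. Across control LPS libraries it was 1.75%, 1.63%, 2.45%, 1.38% and 2.33%, against 7.08% to 11.7% in control saline libraries. Again no LPS library overlapped a saline library. After LPS the mean log2 ratio differed by -1.87 in MIA offspring (exact permutation p = 0.0357, adjusted p = 0.179), or -2.296 without MIA LPS replicate 2, and by -2.195 in control offspring (exact permutation p = 0.00433, adjusted p = 0.0433). The 2 calls among the 20 tests rest on all 11 control libraries, since leaving out any of them raises the smallest p that can be reached; the differences then ran from 2.74 to 2.99 for Axl and from -2.295 to -2.087 for Gas6.

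The ratio of Pros1 to Mertk was not called in any comparison. Pros1 averaged 38.6% ± 1.52 of the Mertk level in MIA LPS, 40.9% ± 1.76 in MIA saline, 36.9% ± 5.74 in control LPS and 41.7% ± 3.17 in control saline libraries. The log2 ratio differed after LPS by -0.084 in MIA offspring (exact permutation adjusted p = 0.238), or -0.11 without MIA LPS replicate 2, and by -0.19 in control offspring (exact permutation adjusted p = 0.268), and the groups overlapped. Mfge8 averaged 1.42% ± 0.493 of Mertk in MIA LPS, 0.817% ± 0.188 in MIA saline, 1.21% ± 0.381 in control LPS and 0.852% ± 0.347 in control saline libraries. Its log2 ratio was higher by 0.77 and 0.54 after LPS, and neither passed (exact permutation adjusted p = 0.268 and 0.269); the MIA value was 1.05 without MIA LPS replicate 2. Itgav, given without a test, averaged 11.0% ± 0.195, 12.3% ± 1.03, 10.6% ± 1.89 and 13.7% ± 1.10 of Mertk in the same 4 groups.

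**Figure D4:**
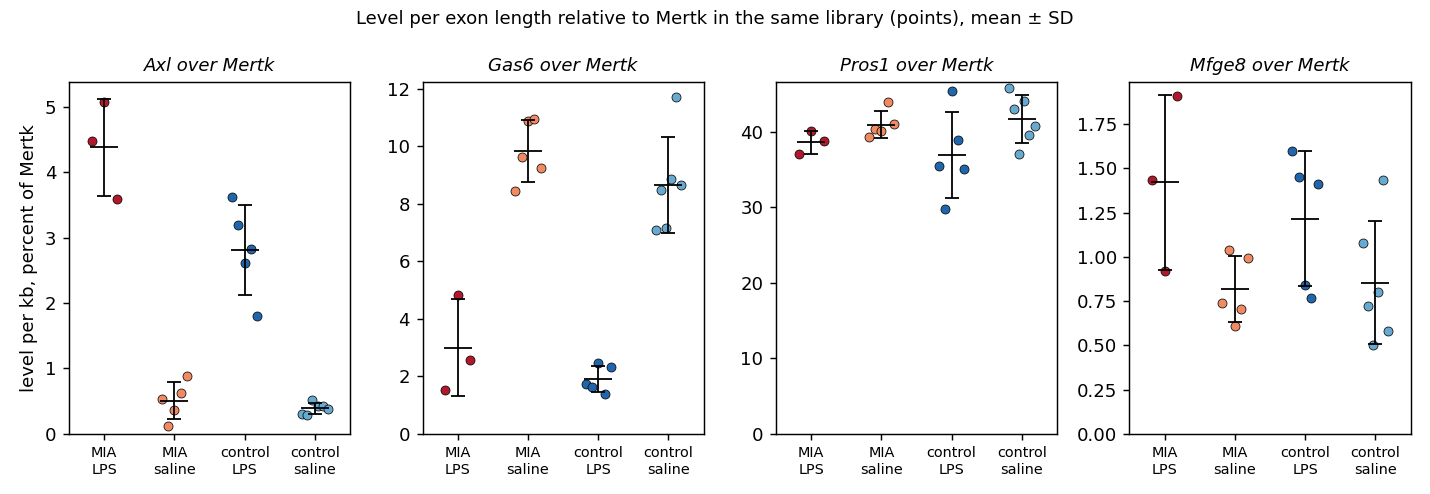
Level per exon length of Axl, Gas6, Pros1 and Mfge8 as a percent of Mertk in the same library (points), with the mean ± SD of each group (n = 3, 5, 5 and 6, batch 1). Axl over Mertk is higher and Gas6 over Mertk lower in every LPS library than in every saline library, while Pros1 stays between 29.8% and 45.7% of Mertk.

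No member passed the test between MIA and control offspring. Of the 6 tested members, 0 were called after LPS and 0 after saline, and 0 had an unadjusted p under 0.05 in either comparison. The groups overlapped for all 7 members in both, beside 2.68% of tested genes without overlap after LPS and 0.407% after saline. Of all 14741 genes, 0.0% were called by edgeR after LPS (825 at an unadjusted p under 0.05, 0 by DESeq2) and 0 after saline (415 at an unadjusted p under 0.05, 6 by DESeq2). The closest to a difference was Mertk after LPS, at 304 ± 59.1 CPM in MIA LPS and 350.2 ± 25.1 CPM in control LPS libraries, where 2 of 3 MIA libraries lay below all 5 control libraries. The log2 difference was -0.20 ± 0.13 (95% interval -0.47 to 0.064, edgeR adjusted p = 0.928), and it was -0.073 without MIA LPS replicate 2 and -0.36 without MIA LPS replicate 1. After saline the Mertk difference was -0.0079 (95% interval -0.23 to 0.21), with means of 490.5 ± 14.7 CPM in MIA saline and 493.2 ± 24.4 CPM in control saline libraries.

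Intervals were wider for the low members. Axl was 0.41 higher on the log2 scale in MIA than in control offspring after LPS (95% interval -0.24 to 1.05) and 0.38 higher after saline (-0.24 to 1.00), where 3 of 5 MIA saline libraries lay above and 1 below all 6 control saline libraries. Gas6 was 0.35 higher after LPS (-0.15 to 0.85) and 0.17 higher after saline (-0.19 to 0.53). Pros1 differed by -0.14 after LPS (-0.44 to 0.15) and by -0.039 after saline (-0.28 to 0.20). Itgav differed by -0.15 after LPS (-0.46 to 0.15) and by -0.16 after saline (-0.41 to 0.086), and 4 of 5 MIA saline libraries lay below all control saline libraries. Mfge8 differed by 0.025 after LPS (-0.73 to 0.78) and by -0.092 after saline (-0.72 to 0.53). Without MIA LPS replicate 2 the differences after LPS were 0.44 for Axl, 0.027 for Gas6, -0.036 for Pros1, -0.016 for Itgav and 0.34 for Mfge8. Differences of 0.8 or more on the log2 scale lie inside the intervals of Axl and Gas6 after LPS.

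The LPS responses of the maternal groups were also set against each other directly. The difference of responses, MIA minus control, was -0.20 ± 0.17 for Mertk (95% interval -0.54 to 0.15), 0.027 ± 0.46 for Axl (-0.91 to 0.97), 0.19 ± 0.30 for Gas6 (-0.43 to 0.80), -0.11 ± 0.18 for Pros1 (-0.48 to 0.27), 0.12 ± 0.47 for Mfge8 (-0.86 to 1.09) and 0.011 ± 0.19 for Itgav (-0.38 to 0.40). Each of these 6 differences had an edgeR adjusted p of 0.9999. Without MIA LPS replicate 2 the differences were -0.064 for Mertk, 0.062 for Axl, -0.14 for Gas6, 0.0038 for Pros1, 0.43 for Mfge8 and 0.15 for Itgav, so the signs of Gas6 and Pros1 turned. No gene of the table was called for this difference by edgeR (492 at an unadjusted p under 0.05, 0 by DESeq2). Among the ratios to Mertk, no test of maternal history passed, and none had an unadjusted p under 0.05. After LPS, with 3 against 5 libraries, no exact permutation p could be under 0.0357. In the LPS tests of MIA offspring that p gave an adjusted p of 0.179, so these tests could hardly pass. The largest ratio difference after LPS was 0.66 for Axl (log2, exact permutation p = 0.0714, adjusted p = 0.238), or 0.55 without MIA LPS replicate 2. For Gas6 the ratio difference after LPS was 0.53, or 0.098 without that library. The Gas6 ratio's difference of responses was 0.33, or -0.10 without it.

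Around the members, 9 lists of 80 efferocytosis genes were counted, of which 69 passed the filter. After LPS, 16 were called higher and 10 lower in MIA offspring, and 20 higher and 16 lower in control offspring, beside the shares of all genes above. The median log2 change of the 69 genes was 0.10 in MIA and 0.0051 in control offspring, against 0.018 and -0.0032 over all genes. Without MIA LPS replicate 2, 21 were called higher and 11 lower in MIA offspring. Between MIA and control offspring edgeR called 0 after LPS (5 at an unadjusted p under 0.05) and 0 after saline (2 at an unadjusted p under 0.05). The list members therefore moved both ways. By list, the counts without that library are given where they differ, and examples are the largest called rise and fall of each list in control offspring. Each count stands beside the share of all genes called after LPS, 39.1% in MIA and 44.6% in control offspring.

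Of 10 tested integrin partners and other bridging factors, 3 rose (5 without MIA LPS replicate 2) and 0 fell in MIA offspring, and 4 rose and 1 fell in control offspring. Lgals3 (galectin-3), a lectin that bridges apoptotic cells to Mertk, averaged 8.59 ± 5.19 CPM in MIA LPS, 0.393 ± 0.238 CPM in MIA saline, 10.7 ± 5.26 CPM in control LPS and 0.546 ± 0.560 CPM in control saline libraries, a log2 rise of 4.41 ± 0.63 and 4.19 ± 0.52 (edgeR adjusted p = 9.3e-06 and 9.76e-07). Itgb5, the beta chain that pairs with alpha-v to bind Mfge8, fell by 0.81 ± 0.21 in control offspring (edgeR adjusted p = 0.0032), while its change in MIA offspring was -0.63 ± 0.26 (edgeR adjusted p = 0.0556), or -0.28 without MIA LPS replicate 2. Of 9 tested phosphatidylserine and apoptotic cell receptors, 2 rose (3 without MIA LPS replicate 2) and 3 fell in MIA offspring, and 3 rose and 4 fell in control offspring. Cd300lf, a phosphatidylserine receptor of myeloid cells, averaged 243 ± 56.0 CPM in MIA LPS, 2.02 ± 1.32 CPM in MIA saline, 258 ± 85.7 CPM in control LPS and 2.04 ± 1.10 CPM in control saline libraries, and rose by 6.86 ± 0.46 and 6.995 ± 0.42 on the log2 scale. Trem2, a lipid-sensing microglial receptor, averaged 85.3 ± 36.8, 258 ± 74.9, 82.7 ± 15.2 and 291 ± 95.9 CPM in the same groups, and fell by 1.59 ± 0.30 and 1.82 ± 0.25 (log2, MIA and control).

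Downstream of the receptors, 2 of 14 tested engulfment signalling genes rose and 3 fell in MIA offspring (4 and 2 without MIA LPS replicate 2), and 5 rose and 5 fell in control offspring. Elmo1, which with Dock proteins activates Rac during engulfment, averaged 190.0 ± 29.0 CPM in MIA LPS, 443 ± 41.2 CPM in MIA saline, 178 ± 12.7 CPM in control LPS and 481 ± 16.3 CPM in control saline libraries. It fell by 1.22 ± 0.13 in MIA and 1.44 ± 0.11 in control offspring (edgeR adjusted p = 5.22e-08 and 5.33e-11). Ptk2, the focal adhesion kinase, rose by 1.02 ± 0.31 in control offspring, and its change in MIA offspring was 0.56 ± 0.37 (edgeR adjusted p = 0.242). Of 9 tested LC3-associated phagocytosis genes, 4 rose (3 without MIA LPS replicate 2) and 1 fell in MIA, and 2 rose and 1 fell in control offspring. Cybb, the catalytic chain of the phagocyte NADPH oxidase, averaged 91.4 ± 40.5 CPM in MIA LPS, 1.40 ± 0.831 CPM in MIA saline, 109 ± 80.2 CPM in control LPS and 3.08 ± 1.45 CPM in control saline libraries, and rose by 6.04 ± 0.61 and 5.13 ± 0.50. Rubcn (Rubicon), which LC3-associated phagocytosis needs, fell by 0.82 ± 0.20 and 0.61 ± 0.16 (edgeR adjusted p = 0.00213 and 0.00342).

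Genes that act on the receptors or ligands themselves formed lists of 5 and 3 genes. These are too few to compare with the 39.1% (MIA) and 44.6% (control) of all genes called. Of 5 genes of TAM receptor shedding, 1 rose and 0 fell in MIA (1 and 1 without MIA LPS replicate 2), and 1 rose and 1 fell in control offspring. Rhbdf2 (iRhom2), which carries the Mertk-cleaving protease ADAM17 to the cell surface, averaged 42.3 ± 8.36 CPM in MIA LPS, 7.04 ± 0.989 CPM in MIA saline, 40.4 ± 7.56 CPM in control LPS and 7.79 ± 1.77 CPM in control saline libraries. It rose by 2.59 ± 0.19 and 2.37 ± 0.16 (edgeR adjusted p = 6.92e-11 and 9.58e-12). Rhbdf1, its paralog, fell by 1.01 ± 0.36 in control offspring and was at -0.43 ± 0.42 in MIA offspring (edgeR adjusted p = 0.454), or -1.22 without MIA LPS replicate 2 (edgeR adjusted p = 0.0376). Ggcx, the gamma-carboxylase that modifies Gas6 and Pros1, averaged 4.62 ± 1.15 CPM in MIA LPS, 9.40 ± 0.852 CPM in MIA saline, 4.10 ± 0.791 CPM in control LPS and 12.1 ± 2.04 CPM in control saline libraries, and was the 1 of 3 genes of its list to be called, lower in both.

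Upstream of Mertk, 0 of 6 tested nuclear receptors and factors rose, and 2 fell in MIA and 3 in control offspring. Of 7 genes of TAM feedback on cytokine signalling, 2 rose and 0 fell in both maternal groups. Of 6 genes of phosphatidylserine exposure and flipping, 2 rose in MIA and 3 in control offspring, and 0 fell. Without MIA LPS replicate 2, 3 rose and 1 fell in MIA offspring. Xkr8, a scramblase of dying cells, rose by 0.81 ± 0.30 in control offspring (edgeR adjusted p = 0.0291) and was at 0.54 ± 0.36 in MIA offspring (edgeR adjusted p = 0.25), or 0.90 without MIA LPS replicate 2 (edgeR adjusted p = 0.0426). The other genes named from these lists stayed on the same side of the threshold in MIA offspring without that library.

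**Figure D5:**
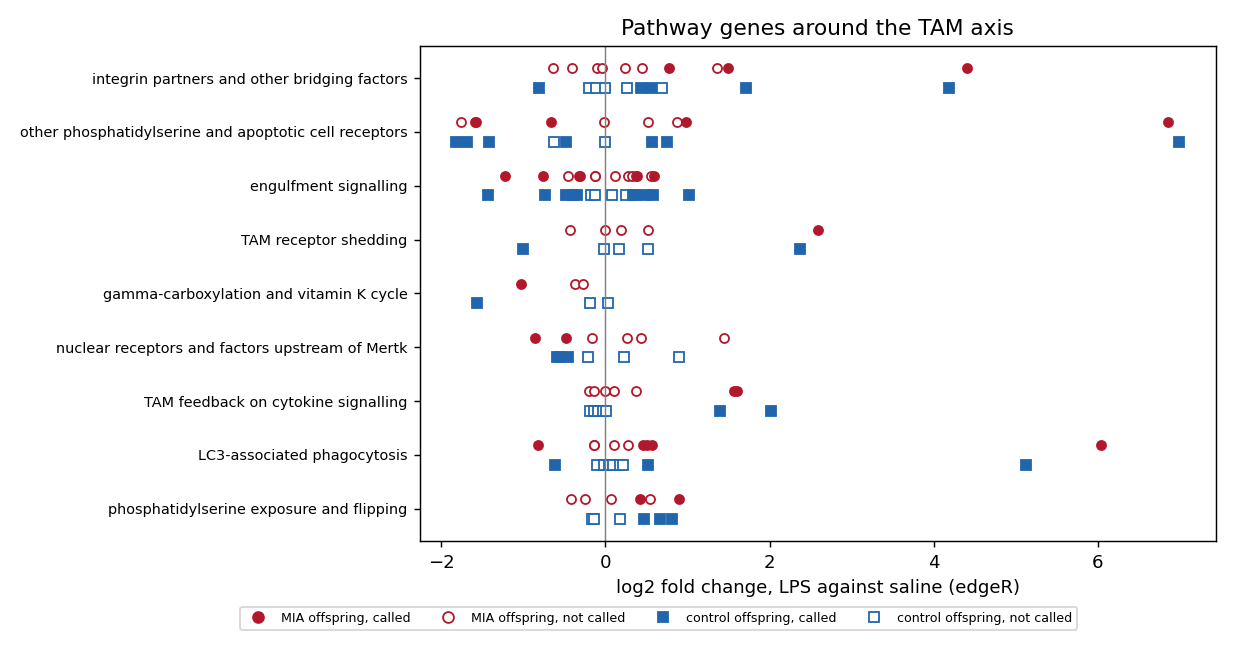
Log2 fold change of LPS against saline (edgeR) for each of the 69 tested genes of 9 lists around the TAM axis, in MIA offspring (circles) and control offspring (squares); filled symbols are called at an adjusted p under 0.05. Genes of most lists lie on both sides of 0, and the largest rises are Cd300lf, Cybb and Lgals3.

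The genes whose profile over the 19 batch 1 libraries was most like that of Mertk, by root mean square difference of centred log2 CPM among 6959 genes, were Ptgs1 (0.0989), Frmd4b (0.109), Man1a2 (0.112), Fam120b (0.119) and Nbr1 (0.12). Among the members themselves the difference from Mertk was 0.144 for Pros1 and 0.208 for Itgav, against 1.08 for Gas6 and 1.56 for Axl. For Axl the most alike genes were Trim30b (0.484), Gcnt2 (0.49), Rnf213 (0.502), Sdc3 (0.524) and Fgl2 (0.525), so its nearest neighbours lay farther off than those of Mertk. These libraries share the LPS contrast, so genes of like LPS change come out alike. Axl also had fewer counts than Mertk, 9 to 74 against 5860 to 7269 per MIA saline library, and a larger LPS change. The part of either in the distances was not tested.

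Some markers of other cells also changed after LPS, beside the 39.1% (MIA) and 44.6% (control) of all genes called. The counts of border-associated macrophage and astrocyte markers below lie near or under these shares. The 7 monocyte markers summed to 40.7 to 74.7 CPM in MIA LPS, 3.54 to 6.79 CPM in MIA saline, 55.5 to 107 CPM in control LPS and 4.15 to 6.06 CPM in control saline libraries, and 6 of 7 rose (5 without MIA LPS replicate 2 in MIA offspring) and 1 fell in both maternal groups. Of those that rose, Fn1 averaged 28.2 ± 16.6 CPM in MIA LPS, 0.306 ± 0.511 CPM in MIA saline, 36.4 ± 22.3 CPM in control LPS and 0.279 ± 0.287 CPM in control saline libraries. Itgal averaged 17.2 ± 10.0 CPM, 0.153 ± 0.176 CPM, 19.3 ± 7.35 CPM and 0.0921 ± 0.0801 CPM in the same groups, and Ly6c2, Plac8, Chil3 and Vcan rose too. Ccr2, a chemokine receptor of monocytes, was the one that fell, at 0.601 ± 0.630 CPM in MIA LPS, 2.84 ± 1.38 CPM in MIA saline, 1.30 ± 0.646 CPM in control LPS and 2.93 ± 0.854 CPM in control saline libraries. The 8 neutrophil markers summed to 83.6 to 172 CPM in MIA LPS, 171 to 214 CPM in MIA saline, 106 to 171 CPM in control LPS and 164 to 205 CPM in control saline libraries. Although the sums were not higher after LPS, 6 of 7 tested neutrophil markers rose and 1, Csf3r, fell in both maternal groups. Csf3r made up most of the saline sum, and averaged 57.4 ± 30.8 CPM in MIA LPS, 184 ± 9.44 CPM in MIA saline, 71.0 ± 19.7 CPM in control LPS and 180.2 ± 22.1 CPM in control saline libraries. Of those that rose, S100a9 averaged 33.6 ± 20.1 CPM in MIA LPS and 34.2 ± 10.6 CPM in control LPS libraries, against 0 counts in each MIA saline library, which allows up to 0.295 CPM in the shallowest, and 2.04 ± 3.06 CPM in control saline libraries. The 7 border-associated macrophage markers summed to 12.4 to 31.2 CPM, 16.1 to 35.1 CPM, 18.7 to 46.1 CPM and 21.1 to 56.8 CPM in MIA LPS, MIA saline, control LPS and control saline libraries, and 1 rose and 2 fell in MIA offspring (1 and 1 without MIA LPS replicate 2) and 1 rose and 1 fell in control offspring. Mrc1 fell in both, at 5.23 ± 0.757 CPM in MIA LPS, 17.5 ± 3.48 CPM in MIA saline, 5.35 ± 2.47 CPM in control LPS and 22.2 ± 6.17 CPM in control saline libraries. F13a1 rose in both, at 13.8 ± 12.02 CPM, 3.05 ± 2.09 CPM, 17.5 ± 6.24 CPM and 7.34 ± 3.52 CPM in the same groups. The 7 astrocyte markers summed to 118 to 235 CPM, 162 to 285 CPM, 111 to 146 CPM and 157 to 310 CPM in the same groups, and of 6 tested, 1 rose and 1 fell in both maternal groups. Slc1a3 fell, at 93.4 ± 16.8 CPM in MIA LPS, 169 ± 26.5 CPM in MIA saline, 93.9 ± 15.9 CPM in control LPS and 191 ± 28.0 CPM in control saline libraries. Gfap rose, at 2.48 ± 0.626 CPM, 0.283 ± 0.208 CPM, 1.93 ± 1.07 CPM and 0.214 ± 0.274 CPM in the same groups. The part of these cells, or of the lower microglial markers, in the changes of Axl, Gas6, Mertk, Pros1 and Itgav was not tested. Lymphocyte markers were at or near 0 in every group, with at most 0.411 CPM summed. Over all 4 groups, neuronal markers summed to 4.52 to 12.6 CPM, oligodendrocyte lineage markers to 30.6 to 91.5 CPM, endothelial and mural markers to 8.42 to 31.3 CPM and erythroid markers to 0 to 34.7 CPM.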

How the data were processed

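Sorted striatal microglia were sequenced from 5 ng of RNA by a modified Smart-Seq2 protocol with 9 PCR cycles, per the labels' protocols. The authors deposited estimated counts per gene (expected counts, with no normalization); the submitters' processing notes list RSEM, STAR and DESeq2 with neither version nor role. The genome build, annotation and strand setting were not given in the sources used here. Among the values, 73018 (6.27%) were not whole and were rounded. The file also held 55487 blank rows, which were dropped. Symbols, coordinates and exon lengths came from GENCODE M21 (GRCm38), to which 55227 of the 55487 identifiers matched once the version was removed, all 7 members among them. Promoters came from RefSeq (GRCm38.p6).

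Expression was tested with edgeR's quasi-likelihood test (edgeR 4.0.16, R 4.3.3, robust, TMM scaling, filter at a minimum count of 10 and total of 15) on 20 libraries in a single fit, with group means plus batch and 15 residual degrees of freedom. The test was also run on simulated counts with the same spread for every gene. That setting is simpler than these data, so the run does not measure accuracy here. Of all genes, 14741 were tested, with adjustment over all of them, and the common biological coefficient of variation came to 0.252. The SE follows from the fold change and the F statistic. CPM are TMM-scaled, except that marker sums use the library total, and CPM per kb divides by the length of all exons of a gene. Ratios to Mertk were tested by two-sided exact permutation over batch 1 libraries, with Benjamini-Hochberg adjustment over 20 tests. No library was a copy of another (lowest chi-square per degree of freedom between replicates 5.95). The protocol mentions no molecular identifiers, so floors cover counting error only. Alternatives were other scalings, limma 3.58.1, DESeq2 1.42.0, no filter, no batch term, the excluded library kept, ribosomal rows removed, blocks, a ratio pseudocount and each library left out.

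The members and lists were chosen with earlier results of these data known. Named genes were all members, the largest called rise and fall per list in control offspring, and, among genes with a mean log2 CPM from 3 upward, the 5 most like Mertk and the 5 most like Axl, without Gm-numbered and similar unnamed genes. Some genes that this rule names are not reported here.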

Additional observations from a re-analysis of the deposited data

Results flagged for a closer look

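In control saline replicate 3, Mertk was at 446.2 CPM, far below the other 5 libraries of its group, which lay between 487 and 511 CPM. Of the 33 groups of values looked at, 1 held such a library, and chance alone flags about 1 in 20. The same library had the lowest Gas6, Pros1 and Mfge8 levels of its group, at 18.76, 155.9 and 2.432 CPM, and the highest Axl level, at 2.71 CPM. Its Itgav and Tyro3 levels lay within the range of the others. The single batch 2 library, MIA LPS replicate 4, is not part of any comparison between groups. Its Axl level was 42.37 CPM, its Tyro3 level 0.7202 CPM and its Itgav level 146.1 CPM, each above all 5 control LPS libraries, which reached 16.2, 0.536 and 118 CPM. The Tyro3 level rests on 6 counts, fewer than the 8 counts of control LPS replicate 4, and is higher only after scaling. Its Mertk level, 289 CPM, and its Gas6 level, 4.68 CPM, lay within the range of the other MIA LPS libraries. That Mertk level was below all 5 control LPS libraries, which went down to 314.9 CPM. Pros1, at 83.55 CPM, was below every other LPS library, the lowest of which held 93.1 CPM. Mfge8, at 2.521 CPM, was below all 5 control LPS libraries, which went down to 2.614 CPM. It was above the lowest MIA LPS library, at 2.459 CPM. This library had counts in 12264 genes and 61.5% of its counts in ribosomal RNA rows. Its summed monocyte markers were 149.7 CPM, against at most 107.1 CPM in the other LPS libraries. Its summed neutrophil markers were 302.7 CPM, against at most 172.5 CPM. The part of these cells in its levels of the members was not tested.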

How the results depend on the processing

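Under 31 settings, 20 of which leave out a library, the 5 members called after LPS stayed called in all 300 of their alternative values, and no other member value became called; 52 of 900 alternative values had the opposite sign, all in comparisons in which that member was not called. Mfge8 after LPS in MIA offspring was -0.0316 with no batch term, and -0.099 to 0.46 as single libraries were left out. Mfge8 after LPS in control offspring was -0.0436 under RLE scaling, -0.0539 under upper quartile scaling, -0.0438 by DESeq2, -0.24 with the ID number as a fixed term, and -0.14 to 0.25 as libraries were left out. Between MIA and control after LPS, Mfge8 was -0.14 and Itgav 0.099 with no batch term, Mfge8 was -0.0357 by limma-voom with the ID number as a random block, and Mfge8 ran from -0.22 to 0.34 over left-out libraries. In that comparison Axl kept its sign and stayed uncalled, but ran from 0.23 to 0.93 over all settings and from 0.23 to 0.57 over left-out libraries. After saline, Mertk was 0.00691 under upper quartile scaling and -0.029 to 0.0029 over left-out libraries, and Mfge8 0.0704 by limma-voom with sample weights and -0.21 to 0.14. For the difference of the LPS responses, Mfge8 was -0.0543 with no batch term, Itgav was -0.00903 with the excluded library kept and -0.0198 with the ID number as a fixed term, and left-out libraries gave -0.21 to 0.32 (Axl), -0.14 to 0.40 (Gas6), -0.22 to 0.0038 (Pros1), -0.12 to 0.43 (Mfge8) and -0.16 to 0.15 (Itgav). Genes called between MIA and control after LPS numbered 0 to 4 over left-out libraries (4 without MIA LPS replicate 1, 3 without replicate 3), those for the difference of responses 0 to 2 (2 without MIA LPS replicate 1, 1 without control saline replicate 4), and those after saline 6 by DESeq2. For the ratios to Mertk, 0 to 2 tests were called as libraries were left out: both calls were lost without any 1 control library (2.737 to 2.991 for Axl, -2.295 to -2.087 for Gas6). Uncalled ratios changed sign for Pros1 between MIA and control after LPS with the batch 2 library kept (-0.00490) and, over left-out libraries, for Axl (-0.12 to 0.58), Pros1 (-0.058 to 0.0025) and Mfge8 (-0.13 to 0.17) after saline, Mfge8 after LPS (-0.015 to 0.51), and Gas6 (-0.10 to 0.73) and Mfge8 (-0.018 to 0.51) in the difference of responses. The cause of these changes was not tested.

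Replicate numbers were not taken to pair the libraries. Over 24 pairs of the same number the median correlation of deviations was 0.030 (-0.14 to 0.22, 5 over 0.1), and 7 of 19 libraries correlated best with their own number. Over 109 pairs of different numbers the median was -0.0085 (-0.21 to 0.205, 10 over 0.1). These values do not settle whether the numbers mark pairs. With the replicate block no member call changed, Mfge8 after LPS in control offspring was -0.0420 and the Itgav difference of responses -0.0220. Precision is limited by the 3 MIA LPS libraries and, for Axl after saline, Mfge8 and Tyro3, by low counts per library.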
